A study of Mus musculus with 11 samples.

Results

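The regions described here are the 240 tiles of 100 kb on chromosomes 1 to 19 (mm9) that held the most anti-HA ChIP-Seq intervals in HA-MacroH2A2 ES cells that had received no Dox. They were chosen by their interval counts in that library alone, as the top 1% of the 24021 tiles with at least 1 interval in that library, out of 24731 tiles in all, and every deposited interval was counted, repeats of the same interval included, at its midpoint. The study follows histone variants in KH2 mouse ES cells (strain 129 X C57bl/6), which carry the M2rtTA transactivator at ROSA26 and an HA-tagged histone under a Dox-responsive promoter at Col1a1. The 11 libraries are anti-HA ChIP from HA-H3.3 ES cells after 3 and 6 h of Dox at 2 μg/mL, anti-HA ChIP from HA-MacroH2A2 ES cells without Dox and after 3, 6 and 12 h, anti-HA ChIP from HA-MacroH2A2 MEFs after 3, 6 and 12 h, and ChIP with an antibody to MacroH2A2 itself from parental ES cells and from wild type MEFs, both labelled as untreated. The study's text also describes anti-MacroH2A2 maps from HA-Macro cells without Dox and after Dox, so which cells the 2 combined replicates came from is not settled by the sources used here. MEFs are embryonic fibroblasts. The HA-MacroH2A2 MEFs came from chimeric embryos, made by injecting the transgenic ES cells into host blastocysts. Cells of host origin were removed with puromycin, and the MEFs were used at passage 2. ES cells were grown on feeder MEFs, which were depleted by pre-plating. HA-MacroH2A2 below is written HA-Macro. There is 1 library for each condition, and the labels describe both anti-MacroH2A2 libraries as 2 combined replicates. No difference below can thus be set against a spread between replicates, and no test across samples was run. No input library, no MEF library without Dox and no HA-H3.3 library without Dox was analysed here.

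A ChIP library from cells in which the tagged protein has not been induced records what the antibody and the beads retain without the tag, what sequencing returns, and any expression that leaks without Dox. Many copies of a satellite or of a ribosomal gene exist in a mouse cell, while the assembled genome holds only a few of them, so that reads from all copies pile up on those few. Major satellite is the AT-rich tandem repeat of mouse pericentromeric heterochromatin, and minor satellite is the tandem repeat of the centromere proper, where the protein CENP-B binds a short box. Telomeres end in TTAGGG repeats, and shorter TTAGGG runs also lie inside chromosomes. Copies of mitochondrial DNA occur in the nuclear genome as well. MacroH2A2 is a histone H2A variant with a large C-terminal macro domain, and H3.3 is the replacement variant of histone H3.

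The sequences at the fullest part of 6 of these tiles are shown because they stand for kinds of sequence found there. All are the plus strand of mm9, taken from the reference genome and not from the reads. The 1st is at chr2:98507220-98507459, overlapping an exon of the predicted gene Gm10800, and its capitals mark bases in 25-mers that also occur in the first assembled 100 kb of chromosome 9. The 2nd is at chr6:103599049-103599288, in an intron of Chl1, and its capitals mark the core CENP-B box (TTCG, any 4 bases, A, any 2 bases, CGGG, here on the minus strand). The 3rd, at chr1:24618767-24618946, lies in no annotated gene, and all of its bases are in 25-mers shared with the mitochondrial genome. The 4th, at chr11:3068803-3069007, is in an intron of Sfi1, and its capitals mark the first 41 bases of a tandem array. The 5th, at chr8:19926777-19927016, is in an intron of 2610005L07Rik, AC152164.1 and Gm17279, and its capitals mark the first unit of another array. The 6th, at chr17:39981117-39981296, lies in no annotated gene, and its capitals mark CpG dinucleotides.
major satellite unit: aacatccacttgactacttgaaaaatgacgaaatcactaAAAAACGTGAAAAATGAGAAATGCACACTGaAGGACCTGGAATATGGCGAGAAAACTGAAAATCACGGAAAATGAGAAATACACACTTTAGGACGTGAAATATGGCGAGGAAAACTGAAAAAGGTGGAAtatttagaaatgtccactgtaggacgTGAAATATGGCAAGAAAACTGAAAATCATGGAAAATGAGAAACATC
minor satellite unit: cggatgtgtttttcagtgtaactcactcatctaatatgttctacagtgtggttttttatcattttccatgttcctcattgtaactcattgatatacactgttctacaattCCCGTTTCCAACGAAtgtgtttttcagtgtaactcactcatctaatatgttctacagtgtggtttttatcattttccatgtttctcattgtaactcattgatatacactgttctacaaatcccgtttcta
mitochondrial-like sequence: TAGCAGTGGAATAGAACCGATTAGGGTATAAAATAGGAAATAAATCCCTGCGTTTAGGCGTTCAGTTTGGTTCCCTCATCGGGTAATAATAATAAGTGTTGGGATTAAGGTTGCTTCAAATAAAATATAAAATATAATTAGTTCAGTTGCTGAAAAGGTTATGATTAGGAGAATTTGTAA
tandem array in the Sfi1 tile: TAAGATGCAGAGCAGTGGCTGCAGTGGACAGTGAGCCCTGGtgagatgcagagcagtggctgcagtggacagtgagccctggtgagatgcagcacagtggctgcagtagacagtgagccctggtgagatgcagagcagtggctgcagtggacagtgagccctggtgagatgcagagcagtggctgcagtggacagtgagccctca
tandem array in the chromosome 8 tile: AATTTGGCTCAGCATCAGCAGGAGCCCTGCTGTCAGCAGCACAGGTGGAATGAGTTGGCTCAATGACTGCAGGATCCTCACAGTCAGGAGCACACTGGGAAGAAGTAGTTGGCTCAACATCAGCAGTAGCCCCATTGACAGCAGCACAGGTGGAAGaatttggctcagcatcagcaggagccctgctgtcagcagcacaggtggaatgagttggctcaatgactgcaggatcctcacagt
GC-rich block: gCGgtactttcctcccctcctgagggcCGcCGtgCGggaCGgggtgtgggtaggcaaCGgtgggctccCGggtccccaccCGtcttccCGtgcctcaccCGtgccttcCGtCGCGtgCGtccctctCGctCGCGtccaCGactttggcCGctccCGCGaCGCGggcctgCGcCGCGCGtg

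Read against each other, the sequences differ in kind. The chromosome 2 sequence has 174 of its 240 bases in 25-mers that the chromosome 9 tile also holds. Consecutive copies within the Sfi1 array match at 155 of 164 bases, and within the chromosome 8 array at 84 of 84. The core CENP-B box, searched on both strands, occurs in 0.0230% of all 2393973 windows of 1 kb with known sequence on chromosomes 1 to 19, and 2 TTAGGG units in a row, also searched on both strands, in 0.0494%. The fullest 1 kb window of 2 of the 240 tiles (0.833%) held the box against 0.0505% of the fullest windows of the other 23781 tiles. That of 8 of the 240 (3.33%) held 2 TTAGGG units in a row against 0.727%.

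Levels in the library without Dox chose these tiles and are given as a description. The median tile of the genome held 469 intervals and the median of the 240 held 737. The fullest, chr2:98500001-98600000, held 303169 intervals, and the next, chr9:3000001-3100000, where the assembled sequence of that chromosome begins, held 220533, so that these 2 tiles hold 61.8% of the intervals in all 240. The fullest 10 hold 75.5%. The fall after them is steep: 12 tiles were at least 5-fold over the median tile, 73 were at least 2-fold over it and 167 were not. The last 3 tiles inside the threshold held 655, 655 and 654 intervals, and the first 3 outside it 653, 652 and 652, all at 1.39- or 1.40-fold the median tile.

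**Figure D1:**
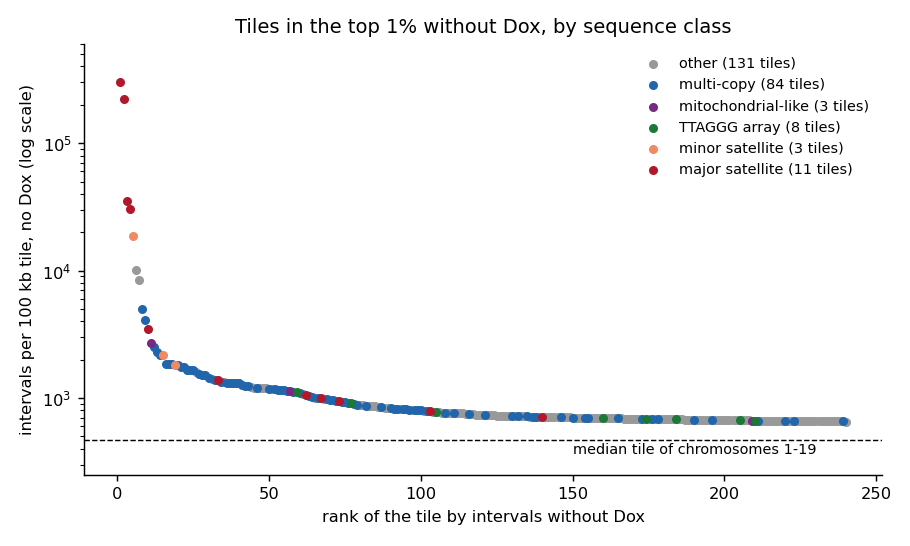
Intervals per 100 kb tile without Dox (vertical axis, log scale) against the rank of the tile, with 1 point per tile coloured by sequence class and a dashed line at the median tile of 469. Satellite tiles take the first 5 ranks, and 167 of the points lie less than 2-fold above the median tile.

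Most of these tiles are not satellite, although they are known by that name here. The fullest 1 kb window of each tile was aligned to the sequences of the chromosome 2 and chromosome 6 summits shown above and to the mitochondrial genome. Of the 240 windows, 11 matched the major satellite unit, over 109 to 240 bases at 77.0% to 100% identity, and 3 matched the minor satellite unit at 89.4% to 100%. These 14 tiles, of which the 2 reference summits are part, held 73.4% of the intervals of all 240 without Dox, and the remaining 226 tiles matched neither satellite. Another 3 windows matched the mitochondrial genome at 95.0% to 100%, and 8 held at least 5 matches to 2 TTAGGG units in a row. Of the rest, 84 tiles are called multi-copy, because at least 50% of their 31-mers occur more than 1 time in the genome, and 131 are called other. The largest group therefore consists of tiles with mostly unique sequence, whose median share of multi-copy 31-mers is 7.08% against 11.8% in a sample of 1190 tiles outside the 240. Over the 240, 36.2% of tiles pass the 50% mark for multi-copy 31-mers, and 3.28% of the sample do. Unknown bases occur in 10.0% of the 240 and in 1.19% of the other tiles.

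How much of each library falls in the 240 tiles separates the HA-Macro libraries from the others. Without Dox it was 7.01% of the intervals on chromosomes 1 to 19 (95% exact Clopper-Pearson interval 6.997 to 7.026). In the induced HA-Macro ES libraries it was 5.91% (5.90 to 5.92) at 3 h, 6.32% (6.30 to 6.33) at 6 h and 6.31% (6.30 to 6.32) at 12 h. The share without Dox is the value that chose the tiles, so it is no baseline for an effect of induction. In MEFs the share was 4.92% (4.90 to 4.93) at 3 h, 4.53% (4.51 to 4.54) at 6 h and 3.70% (3.69 to 3.71) at 12 h. The anti-MacroH2A2 libraries held 1.94% (1.93 to 1.95) in ES cells and 1.34% (1.34 to 1.35) in MEFs, and the HA-H3.3 libraries 2.07% (2.06 to 2.08) at 3 h and 2.21% (2.20 to 2.22) at 6 h. All induced HA-Macro libraries thus lie above all 4 of the others. The library without Dox does too, but its counts chose the tiles. The HA-H3.3 libraries are anti-HA libraries as well, and their files also differ in interval length, as given next. The intervals cover counting error only, and reads amplified by PCR are not independent molecules.

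Interval length separates the libraries in the same way: deposited intervals span 150 bp wherever HA-Macro was precipitated and 400 bp in each of the 4 remaining libraries. Repeated intervals, that is rows beyond the first at the same start and end, make up 3.296% to 6.03% of the former and 0.459% to 0.694% of the latter on chromosomes 1 to 19. The transgene that the cells carry, as labelled, and the way the files were made follow the same split, and their parts in the gap between these 2 sets of libraries cannot be told apart. Within the 240 tiles, repeats were 70.7% of the intervals without Dox, 59.7%, 63.96% and 64.9% at 3, 6 and 12 h in ES cells, and 61.5%, 58.3% and 53.6% in MEFs. They were 8.76% and 9.68% in the anti-MacroH2A2 libraries from ES cells and MEFs, and 13.2% and 7.94% in HA-H3.3 at 3 and 6 h. Outside the 240, they stayed at or below 2.06% in every library. The 240 tiles hold 85.5% of all repeated rows of the library without Dox and 60.1% to 74.3% of those of the induced HA-Macro libraries.

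Counted with each distinct interval taken 1 time, the share in the 240 tiles fell to 2.18% without Dox and to 1.77% to 2.50% in the induced HA-Macro libraries, and the other 4 libraries held 1.22% to 2.05%. On this scale the 2 sets of libraries overlap, but distinct intervals in the fullest tile hardly followed its level, as given below. The chosen tiles are 1.00% of the tiles, so a share near 1% is what an even library would give. Leaving out the 2 fullest tiles brought the HA-Macro libraries to 1.99% to 2.96%, against 1.23% to 2.08% in the others.

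**Figure D2:**
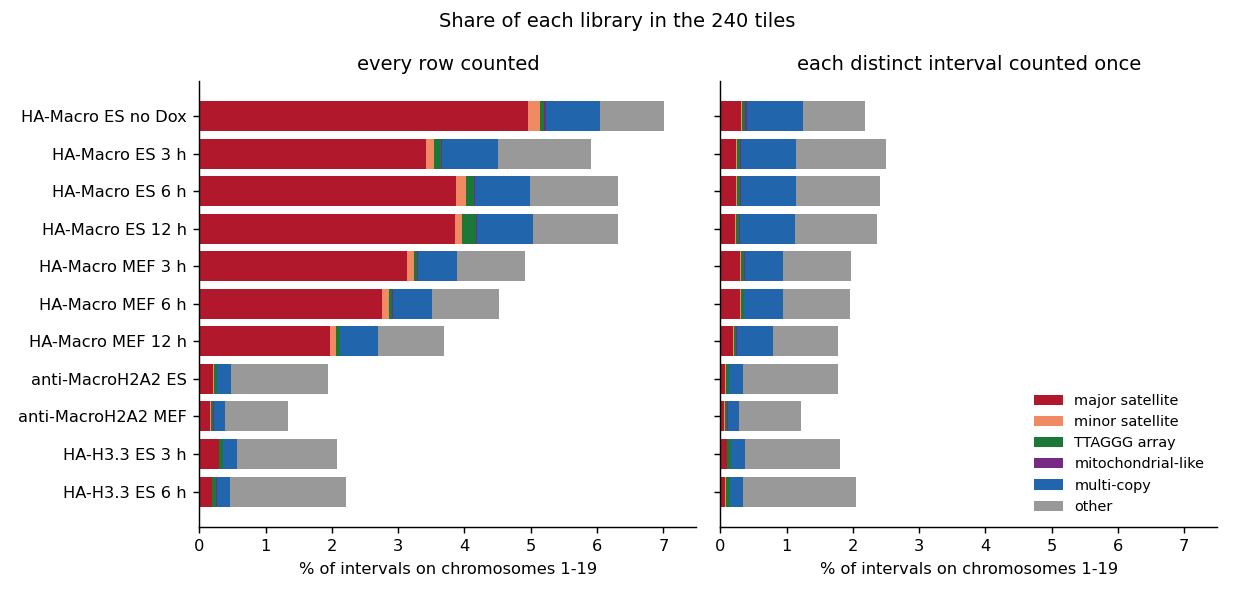
Share of the intervals on chromosomes 1 to 19 (%) that falls in the 240 tiles, with 1 bar per library split by sequence class, counting every row (left) or each distinct interval 1 time (right). Major satellite tiles make up most of the bar in the 7 HA-Macro libraries on the left and little of it in the 4 others or on the right.

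The 11 major satellite tiles, counted whole, made up 53.5% to 70.7% of the intervals in the 240 tiles in the HA-Macro libraries. In the other 4 libraries they made up 8.46% to 14.0%, and the tiles called other held 71.3% to 78.9%. The major satellite tiles held 4.96% of the library without Dox (4.94 to 4.97), 3.41%, 3.87% and 3.85% at 3, 6 and 12 h in ES cells, and 3.13%, 2.76% and 1.98% in MEFs. In the anti-MacroH2A2 libraries the same tiles held 0.206% in ES cells and 0.163% in MEFs, and in HA-H3.3 0.290% at 3 h and 0.187% at 6 h. In ES cells the share was 1.13-fold higher at 12 h than at 3 h, and in MEFs it was 0.633-fold, with counting intervals that do not overlap in either case. The rise in ES cells was seen only against 3 h, since the share at 6 h was no lower than at 12 h, and only with repeats counted. With distinct intervals the share in ES cells was 0.233% at 3 h, 0.236% at 6 h and 0.228% at 12 h, and in MEFs it was 0.296%, 0.291% and 0.185%. The number of distinct intervals was 37257, 38293 and 39172 in ES cells and 31004, 29658 and 35598 in MEFs. From 3 to 12 h these counts changed less than depth did, so the distinct share cannot settle a direction.

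The tile at the top, chr2:98500001-98600000, holds the predicted protein-coding genes Gm10801 and Gm10800. It held 303169 intervals without Dox, and 300516, 354117 and 372355 in ES cells and 176844, 151549 and 206403 in MEFs at 3, 6 and 12 h. Relative to the median tile of each library these are 646-fold without Dox, 540-, 577- and 570-fold in ES cells, and 450-, 392- and 282-fold in MEFs. It held 9680 and 12143 intervals in anti-MacroH2A2 from ES cells and MEFs, and 10872 and 10708 in HA-H3.3 at 3 and 6 h, which are 30.2-, 21.3-, 46.9- and 34.4-fold. The tile is thus the highest of the 240 in all 11 libraries, and lowest relative to the median in anti-MacroH2A2 from MEFs. Repeats are 98.2% to 99.2% of its intervals in the HA-Macro libraries and 84.9% to 86.5% in the others. With distinct intervals it stood at 3.98- to 7.06-fold in the induced HA-Macro libraries and 2.90- to 6.51-fold in the other 4, so that the sets overlap. It held 2704 to 3073 distinct intervals in every HA-Macro library, while all its intervals there ran from 151549 to 372355. The distinct count thus hardly followed the level, and the overlap cannot show that the 2 sets are alike in this tile. The most repeated interval occurred 2293 times without Dox and 3496 times in ES cells at 12 h, the highest number in any library. The fullest 1 kb of this tile held 39.9% of its intervals without Dox.

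**Figure D3:**
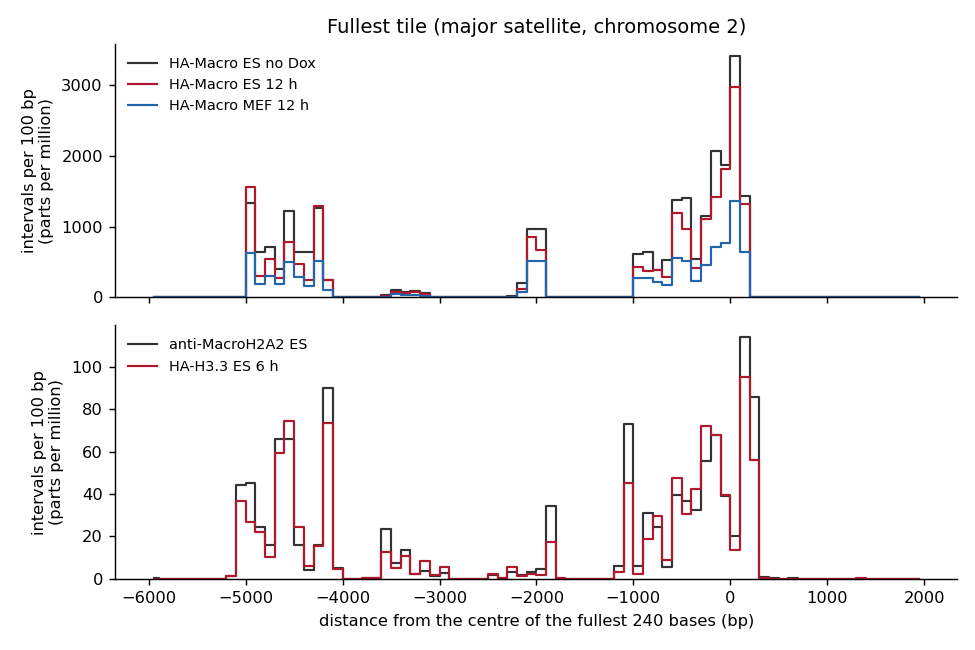
Intervals per 100 bp (ppm of the library) in the fullest tile against the distance (bp) from the centre of its fullest 240 bases, with 1 line per library. The blocks lie at the same places in the no Dox, 12 h ES and 12 h MEF libraries (top). Those of anti-MacroH2A2 from ES cells and HA-H3.3 at 6 h (bottom) are lower, up to 114 ppm against 3411 without Dox, and do not all coincide with them. At 250 bp anti-MacroH2A2 held 85.6 ppm and the library without Dox 0. Intervals span 150 bp at the top and 400 bp at the bottom, so reads that start at the same base have different midpoints. The places of the blocks therefore cannot be compared base by base between top and bottom.

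The chromosome 9 tile differs in shape. It holds 13 annotated genes in a row (Gm10722, Gm10721, Gm10720 and others, all of them predicted), and its fullest 1 kb held 5.06% of its intervals. It stood at 470.2-fold the median tile without Dox, at 362-, 368- and 368-fold in ES cells and at 307-, 262- and 182-fold in MEFs, and at 8.03- and 6.36-fold in anti-MacroH2A2 and 12.9- and 9.02-fold in HA-H3.3. With distinct intervals it is the highest of the satellite tiles without Dox, at 57.7-fold without Dox and 32.2- to 58.1-fold in the induced HA-Macro libraries against 2.35- to 6.05-fold in the others. In both tiles the sequence repeats at a shift of 234 bases, at 99% and 100% identity over 100 bases.

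The next tiles are local blocks. In chr9:35100001-35200000 74.8% of the intervals without Dox lie in 1 kb, and in chr12:3100001-3200000 54.1% do. They stood at 75.6- and 64.7-fold the median tile without Dox, at 34.3- and 27.2-fold in MEFs at 12 h, and at 3.98- and 1.20-fold in anti-MacroH2A2 from MEFs. Repeats were 97.5% and 97.4% of their intervals without Dox, and with distinct intervals they stood at 1.89- and 1.73-fold there. The 11 tiles had a median of 2.93-fold without Dox with every row counted and of 1.37-fold with distinct intervals. Outside the 240, 7 fullest windows also matched the major satellite unit, over 81 to 224 bases at 79.1% to 85.6% identity. Their tiles had a median of 1.15-fold without Dox, 1.01- to 1.44-fold in the induced HA-Macro libraries and 0.849- to 1.14-fold in the other 4, so that the 2 sets of libraries overlap there. The rule itself kept these tiles below the threshold without Dox.

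Minor satellite was found in 3 tiles. The fullest of them, chr6:103500001-103600000, held 18734 intervals without Dox, of which 97.7% lie in its last 1 kb and 96.1% are repeats. It was at 39.9-fold the median tile without Dox, at 32.4-, 34.1- and 25.2-fold in ES cells and at 24.9-, 20.4- and 18.5-fold in MEFs. In anti-MacroH2A2 it was at 1.40-fold in ES cells and 1.77-fold in MEFs, and in HA-H3.3 at 1.27- and 1.18-fold, near the median tile. The other 2, chr9:24300001-24400000 and chr4:64100001-64200000, were at 4.61- and 3.90-fold without Dox and between 2.56- and 4.36-fold in the induced HA-Macro libraries. None of the 3 was at 2-fold in the 4 libraries with 400 bp intervals. With distinct intervals the 3 tiles lay between 1.05- and 1.55-fold without Dox, between 0.741- and 2.04-fold in the induced HA-Macro libraries and between 0.697- and 1.45-fold in the other 4. Over whole tiles the contrast was thus small on this scale. In the fullest 1 kb of the chromosome 6 tile, however, each HA-Macro library held 271 to 293 distinct intervals and the other 4 held 29 to 40. Together they held 0.188% of the library without Dox (0.186 to 0.191), 0.132%, 0.150% and 0.113% in ES cells, and 0.112%, 0.0964% and 0.0879% in MEFs. Unlike major satellite, the 3 tiles together held less at 12 h than at 3 h in ES cells (0.854-fold) as well as in MEFs (0.783-fold), again with counting intervals apart. Outside the 240, 4 fullest windows matched the minor satellite unit. Their tiles had a median of 1.07-fold without Dox, 0.822- to 1.14-fold in the induced HA-Macro libraries and 0.878- to 0.986-fold in the others.

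TTAGGG arrays behaved differently from both satellites. The 8 tiles held 0.0514% of the library without Dox (0.0501 to 0.0526), and 0.104%, 0.119% and 0.207% at 3, 6 and 12 h in ES cells, so that the share at 12 h was 1.99-fold that at 3 h. In MEFs they held 0.0487%, 0.0535% and 0.0522%. The highest of them, chr18:90700001-90800000, which is near the end of its chromosome, held 1115 intervals without Dox and 4203, 5274 and 11482 in ES cells, and 1008, 1134 and 2019 in MEFs. It was at 17.6-fold the median tile at 12 h in ES cells, at 2.76-fold at 12 h in MEFs and at 2.38-fold without Dox. The next, chr2:181700001-181800000, near the end of chromosome 2, was at 15.9-, 2.41- and 1.95-fold in the same order. The levels without Dox chose both tiles and are no baseline. In the 4 libraries with 400 bp intervals both lay between 0.311- and 1.32-fold.

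From 3 to 12 h in ES cells the intervals in the TTAGGG tiles rose, while the distinct ones, counted over whole tiles, did not. The 8 tiles held 6204 intervals without Dox, of which 5271 were distinct, and 17559, 20371 and 37873 in ES cells, of which 9287, 8564 and 8528 were distinct. In the 8 tiles, repeats rose from 47.1% of intervals at 3 h to 58.0% at 6 h and 77.5% at 12 h in ES cells, and were 20.9%, 24.3% and 31.8% in MEFs. Without Dox, in the library that chose the tiles, they were 15.04%. With each distinct interval taken 1 time their share was 0.0463% without Dox and 0.0580%, 0.0528% and 0.0497% in ES cells, with the highest value at 3 h.

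Windows that the rule did not choose were also highest in ES cells at 12 h. Outside the 240 tiles, 216 windows of 1 kb hold at least 5 matches to 2 TTAGGG units in a row. Together they held 840.3 ppm (intervals per 1000000 of the library) without Dox (824 to 857), and 2724 (2699 to 2749), 3755 (3726 to 3784) and 7730.3 (7690.2 to 7770.6) at 3, 6 and 12 h in ES cells. In MEFs they held 1129, 1349 and 1193 ppm. Of the 216, 208 were higher in ES cells at 12 h than at 3 h, where 49.3% of all 1 kb windows were. At 12 h 212 were higher than without Dox, where 45.8% were. The rule kept the tiles of these windows below the threshold without Dox, so that library is no baseline for them. The fullest windows of the 8 tiles were higher at 12 h than at 3 h in 8 of 8 cases in ES cells and in MEFs alike. In MEFs 145 of the 216 were higher at 12 h than at 3 h, against 52.4%. These windows share their sequence, and reads from any of them may be placed on another at random, so they are not independent. With distinct intervals the 216 windows held 588 ppm without Dox and 742, 788 and 845 in ES cells, against 709, 783 and 549 in MEFs. On this scale the cell types differed little at 3 and 6 h. From 3 to 12 h in ES cells, distinct intervals went from 11891 to 14487 and all intervals from 45822 to 141104, so distinct counts followed the level little. Over 100 kb tiles, 25 of 24017 were at least 2-fold higher at 12 h than at 3 h in ES cells, and 16 of these 25 hold such a window, as do 0.895% of the tiles compared.

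**Figure D4:**
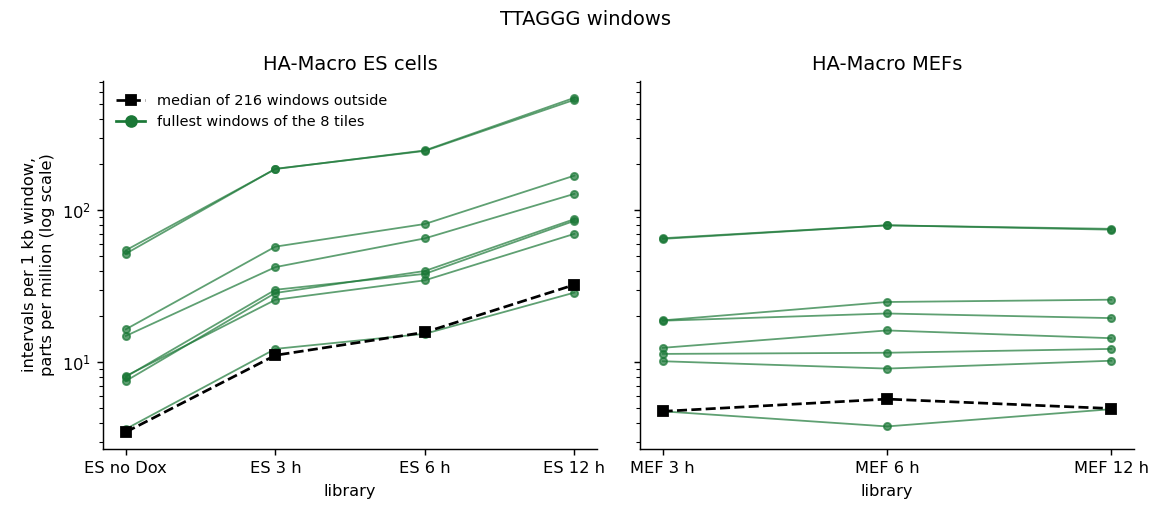
Intervals per 1 kb window (ppm of the library, log scale) in the HA-Macro libraries, with 1 green line for the fullest window of each of the 8 TTAGGG tiles and a dashed black line for the median of the 216 TTAGGG windows outside the 240 tiles. In ES cells every line is higher at each later time of Dox, and in MEFs the lines change less. The library without Dox set which tiles are inside and outside the 240.

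The 3 tiles that match mitochondrial DNA were chosen for their level without Dox, and after Dox 1 of them was at 2-fold the median tile, at 3 h in ES cells. The fullest, chr1:24600001-24700000, where Gm10222 and Gm10925 are annotated, held 2699 intervals without Dox and 1219, 923 and 659 in ES cells, and 561, 477 and 829 in MEFs. It stood at 5.75-fold the median tile without Dox, the value that chose it, at 2.19-, 1.50- and 1.01-fold in ES cells, 1.43-, 1.23- and 1.13-fold in MEFs and at 0.681- to 0.892-fold in the other 4 libraries. The 3 tiles together held 372 ppm without Dox and 148, 124 and 98.7 in ES cells. The mitochondrial genome itself, which the rule did not use, was at 885 ppm of the whole library without Dox, at 208, 107 and 46.5 in ES cells, 83.1, 72.0 and 45.6 in MEFs, 412 and 196 in HA-H3.3 and 220.3 and 201 in anti-MacroH2A2. The part that reads of mitochondrial DNA itself have in these tiles was not tested. A match was also found in 16 fullest windows outside the 240, in tiles with a median of 1.09-fold without Dox.

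Other tiles among the fullest 10 did not share 1 pattern. The tile chr17:39900001-40000000, with the pseudogene AY036118, has its highest coverage in a block of 5704 bases with a GC content of 65.0%, and no ribosomal DNA sequence was compared with it. It was at 17.9-fold the median tile without Dox, 22.4-, 23.5- and 16.6-fold in ES cells, 14.4-, 12.5- and 11.03-fold in MEFs, 20.1- and 11.6-fold in anti-MacroH2A2 and 38.8- and 26.6-fold in HA-H3.3. This is the 1 tile of the fullest 10 at which HA-H3.3 at 3 h and 6 h is above every HA-Macro library. The Sfi1 tile, chr11:3000001-3100000, whose gene codes for a centrin-binding protein of the centrosome, was at 21.6-fold without Dox and between 15.6- and 25.6-fold in the other 10 libraries. All 4 MEF libraries were at 15.6- to 18.0-fold and all 7 ES libraries at 21.6- to 25.6-fold. Its intervals were spread, with 3.07% in the fullest 1 kb and 15.4% repeats.

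The 2 adjacent tiles of a cluster of 5S ribosomal RNA genes, chr8:126000001-126200000, were chosen for mention after their values were seen. The upper one held 1318 intervals without Dox, 2935, 5374 and 6190 in ES cells and 5252, 4523 and 7989 in MEFs. Relative to the median tile it was at 2.81-fold without Dox, 5.27-, 8.75- and 9.48-fold in ES cells and 13.4-, 11.7- and 10.9-fold in MEFs, and at 0.942- to 1.68-fold in the other 4 libraries. Repeats were 1.14% to 9.56% of its intervals in the HA-Macro libraries, and distinct intervals gave 8.92-fold in ES cells at 12 h. Among all genes with their start in the 240 tiles, 53 of 947 (5.60%) are annotated as rRNA, against 0.886% over all tiles with reads, and 43 of the 53 carry a 5S symbol (n-R5s).

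The 84 multi-copy tiles are defined by their 31-mers, and 11 of them hold no gene start. Their median level was 2.06-fold the median tile without Dox, 2.50-, 2.33- and 2.34-fold in ES cells, and 1.36-, 1.36- and 1.25-fold in MEFs. In the anti-MacroH2A2 libraries it was 0.570- and 0.443-fold, and in HA-H3.3 0.565- and 0.584-fold, below the median tile. Repeats were few, between 3.57% and 9.03% in the HA-Macro libraries, and distinct intervals gave medians of 2.00-fold without Dox and 1.24- to 2.38-fold after Dox. Of the 84 tiles, 2 held no interval at all in each of the 4 libraries with 400 bp intervals, both within the chromosome 4 runs named below.

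The same gap was found in tiles that the rule did not choose. Of the 1190 sampled tiles outside the 240, 39 have at least 50% multi-copy 31-mers. Their median level was 0.936-fold the median tile without Dox and 0.624- to 0.898-fold in the induced HA-Macro libraries, but 0.158- to 0.198-fold in the 4 others. The remaining 1151 had medians of 0.995- to 1.02-fold in all 11 libraries. The 4 libraries with 400 bp intervals were thus lower in these 39 multi-copy tiles as well, HA-H3.3 with its anti-HA antibody among them, and the parts that the transgene of the cells and the making of the files have in this cannot be told apart.

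**Figure D5:**
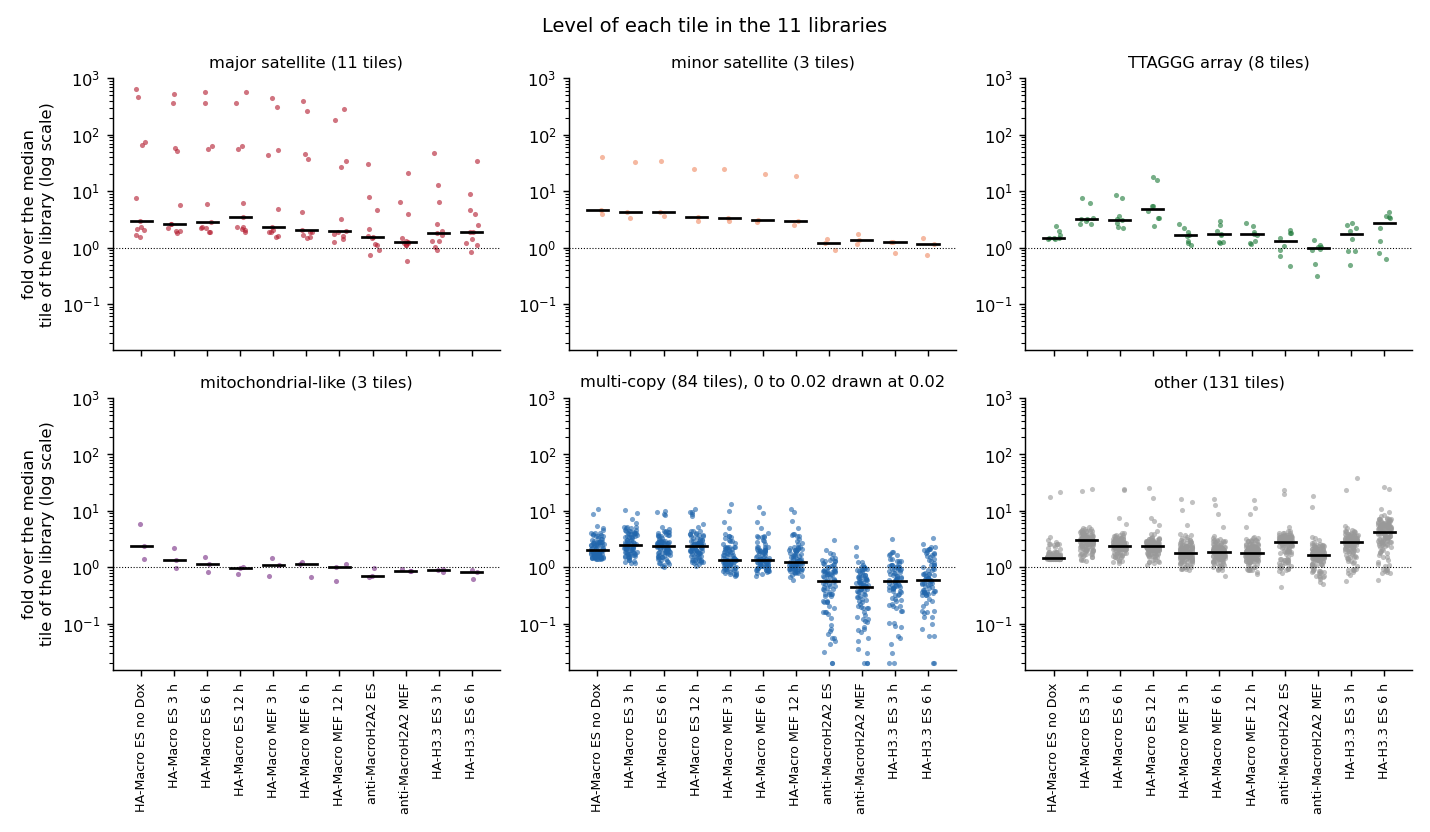
Level of each of the 240 tiles in the 11 libraries as the fold over the median tile of the library (log scale), with 1 panel per sequence class, 1 point per tile and a bar at the median. Major satellite, minor satellite and multi-copy tiles are lower in the 4 rightmost libraries, TTAGGG tiles are highest in ES cells at 12 h, and the tiles called other are highest in HA-H3.3 at 6 h.

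In total 16 runs of at least 3 adjacent tiles hold 86 of the 240, and the gene names given for them were likewise chosen after their values were seen. Runs made up mostly of multi-copy tiles include chr4:145000001-145900000 and chr4:146300001-147200000, with many predicted genes beside Rex2 and the zinc finger gene Zfp534, chr8:19600001-20100000, chr5:14900001-15300000 with Speer4 genes, chr1:84900001-85400000, chr1:87300001-87600000 with Sp100, Sp110 and Sp140, which code for nuclear body proteins, and chr13:12800001-13100000 with the prolactin family genes Prl2c2 and Prl2c3. The chromosome 4 runs had medians of 2.48- and 2.81-fold without Dox, 3.43- and 4.06-fold at 3 h in ES cells and 1.23- and 1.35-fold at 3 h in MEFs. The Speer4 run was at 3.73-fold without Dox, 3.49-fold at 3 h in ES cells and 2.60-fold in MEFs. In the run on chromosome 8 the 2 fullest tiles were at 10.6- and 8.77-fold without Dox and at 6.56- and 4.99-fold in MEFs at 12 h. No olfactory receptor gene (Olfr) has its start in the 240 tiles, although 3.59% of genes in all tiles with reads carry that symbol. Predicted genes (Gm) are 27.0% of the genes in the 240 against 22.7%, and protein-coding genes 63.3% against 61.8%.

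The 131 tiles called other were mostly rich in GC and in genes. Their median GC content was 52.0%, against 41.4% in tiles outside the 240, and they held 4.61 gene starts per tile against 1.42. The largest run of all, chr10:79100001-81100000, has 20 tiles, 150 genes, 122 of them protein-coding, and a GC content of 53.7%. It was at a median of 1.54-fold the median tile without Dox, 3.69-, 3.05- and 2.78-fold in ES cells, 2.15-, 2.10- and 1.98-fold in MEFs, 3.43- and 2.06-fold in anti-MacroH2A2 from ES cells and MEFs, and 3.77- and 6.14-fold in HA-H3.3 at 3 and 6 h. Here the library without Dox is the lowest of the 11.

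Of the 131 tiles, 45 have under 50% GC. They had medians of 1.64-fold without Dox, 2.36-, 2.12- and 1.93-fold in ES cells, 1.64-, 1.55- and 1.47-fold in MEFs, 1.38- and 1.12-fold in anti-MacroH2A2 and 1.76- and 2.32-fold in HA-H3.3. The other 86 have at least 50% GC. Their median was 1.46-fold without Dox, 3.17-, 2.51- and 2.39-fold in ES cells, 1.89-, 1.92- and 1.90-fold in MEFs, 3.14- and 1.76-fold in anti-MacroH2A2 and 3.06- and 5.09-fold in HA-H3.3. Tiles outside the 240 with at least 50% GC number 745, and their medians were 1.23-fold without Dox, 2.10-, 2.02- and 1.98-fold in ES cells, 1.81-, 1.75- and 1.81-fold in MEFs, 2.30- and 1.63-fold in anti-MacroH2A2 and 2.27- and 3.35-fold in HA-H3.3. The medians of both GC-rich sets thus lie above the median tile in each of the 10 libraries that did not choose the tiles. Without Dox the rule itself set a lowest level for the members and a highest level for the others. Single tiles did not all do so, and the lowest GC-rich member was at 0.685-fold in anti-MacroH2A2 from MEFs. Whether GC content or gene density goes with these levels was not tested, since they vary together.

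Counting the 240 tiles that were at least 2-fold over the median tile gives, beside the share of all tiles that were, 192 (9.52% of all) at 3 h, 182 (4.23%) at 6 h and 172 (4.31%) at 12 h in HA-Macro ES cells. In MEFs 87 (5.08%), 81 (4.26%) and 80 (5.05%) were. In anti-MacroH2A2 100 (4.12%) were in ES cells and 35 (1.62%) in MEFs, and in HA-H3.3 110 (6.2%) at 3 h and 129 (19.7%) at 6 h. Without Dox 73 were, which are all such tiles of the genome (0.304%), as the rule requires. The tiles chosen without Dox were therefore raised more often than tiles in general in each of the 10 libraries that did not choose them, although the libraries share the genome they are mapped to. This is not particular to the 240. Of the 745 GC-rich tiles outside them, 504 and 603 were at 2-fold in HA-H3.3 at 3 and 6 h. In anti-MacroH2A2 627 were in ES cells and 172 in MEFs. In HA-Macro 415, 391 and 360 were at 3, 6 and 12 h in ES cells, and 292, 239 and 263 in MEFs. In anti-MacroH2A2 and HA-H3.3, most of the 240 tiles that were raised are of the kind called other: 93 of 100 and 31 of 35 in anti-MacroH2A2, and 102 of 110 and 110 of 129 in HA-H3.3.

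Few of the 240 tiles differed by 2-fold between times. From 3 to 12 h in ES cells 5 were at least 2-fold higher (0.104% of all tiles) and 2 lower (0.995%), and the higher ones were 3 TTAGGG tiles and 2 tiles called other. In MEFs none was higher (0% of all tiles) or lower (0%) by this measure. Between HA-H3.3 at 6 h and 3 h 1 tile was higher (0.021%) and 1 lower (0.0842%). Pairs were compared over tiles with at least 20 intervals in both libraries, here 234 of the 240.

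More tiles differed between cell types. In MEFs relative to ES cells, 60 tiles were at least 2-fold lower at 3 h (7.7% of all tiles), 25 at 6 h (0.525%) and 34 at 12 h (0.837%), and 4 (5.02%), 0 (2.67%) and 0 (2.63%) were higher. At 12 h the lower tiles were 23 multi-copy, 7 TTAGGG, 1 major satellite and 3 other tiles. The median log2 ratio at 12 h over the 240 was -0.48, against -0.05 over all tiles. In anti-MacroH2A2, 8 of 232 tiles compared were at least 2-fold lower in MEFs (0.109%) and none was higher (0.383%), and the median log2 ratio was -0.44 against 0.02. The HA-Macro libraries come from ES cells and MEFs that differ in preparation as well as in cell type, and 1 library stands for each.

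Depth ranged from 6488112 intervals in HA-H3.3 at 3 h to 20541627 in HA-Macro MEFs at 12 h. The HA-Macro ES library at 3 h stands apart on chromosome Y, which took 0.130% of its intervals against 0.0303% to 0.0382% in the other 3 HA-Macro ES libraries. The ES libraries with 400 bp intervals took 0.0709% to 0.107% and the HA-Macro MEF libraries 0.0240% to 0.0268%. Chromosome Y is not among the tiles. The HA-Macro ES library at 3 h is used in the ES comparison of 12 h with 3 h and in that of MEFs with ES cells at 3 h. At 6 h in its place the share in the 240 tiles, 6.32%, is as high as at 12 h, and that of the TTAGGG tiles is lower, 0.119% against 0.207%.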

How the data were processed

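Anti-HA or anti-MacroH2A2 ChIP-Seq was analysed in 11 libraries. Per the methods, the authors collapsed reads by sequence while keeping occurrences, aligned them to the mm9 build with Bowtie (version 1.0 in the submitters' processing notes) allowing at most 1 mismatch, placed a read with more than 1 match on a random one of them, and lengthened reads in the 3′ direction to 150 bp. The deposited files hold 1 interval per row (chromosome, first and last base), with no count, strand or sequence, and no input was subtracted. Intervals of 400 bp were found in 4 of the libraries. For their own tile analyses the authors discarded the top 1% of tiles by anti-HA signal in uninduced cells, on their own normalized values, and whether these are the same tiles was not checked.

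Interval midpoints were counted in 100 kb tiles and 1 kb windows of chromosomes 1 to 19 (numpy 2.4.6, pandas 2.3.3), and shares carry 95% exact Clopper-Pearson intervals (scipy 1.17.1). Folds are relative to the median tile with at least 1 interval of the same library, with no added count. Pairs of libraries were compared by their shares of intervals, over tiles with at least 20 intervals in both. The rule for tiles named is the 10 fullest, the 3 on each side of the threshold and runs of at least 3 adjacent members, and for genes those with a start in the 10 tiles or within 2 kb of the fullest window of the 25 fullest tiles, up to 30. Other tiles named, namely those matching mitochondrial DNA, the smaller minor satellite tiles and the TTAGGG and 5S tiles, were chosen after their values were seen. Windows were aligned with blastn 2.17.0 (e-value at most 1e-05, at least 50 aligned bases), repeats were sought at shifts of 20 to 400 bases, and 31-mers were counted over the genome for the members and every 20th other tile. The genome given is all in capitals, so masked repeats were not measured. Genes come from the GENCODE annotation of mm9. The counting was tested on simulated data. Members, lists and sequence classes were chosen with earlier results of these data known, and the classes after the values were seen. The sequence of 1 further tile is not reported here.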

Additional observations from a re-analysis of the deposited data

Results flagged for a closer look

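The change of 3 results from 3 to 12 h of Dox goes opposite ways in HA-Macro ES cells and MEFs, in each case with counting intervals apart, and with 1 library per time the difference between the cell types was not tested. The share of the library in all 240 tiles changed by a log2 ratio of 0.0946 in ES cells and -0.411 in MEFs. For the major satellite tiles the log2 ratios were 0.176 and -0.661, and for the multi-copy tiles 0.0259 and -0.0442. The sign in ES cells was not the same on every scale. With distinct intervals the share fell in ES cells too, from 2.50% to 2.36% in all 240 tiles and from 0.233% to 0.228% in the major satellite tiles, while in the multi-copy tiles it was 0.821% and 0.824%. The number of distinct intervals went from 400809 to 404763 in the 240 tiles and from 37257 to 39172 in the major satellite tiles. Both changed less than depth did, so these 2 falls cannot settle a direction. The median log2 ratio per tile in ES cells was -0.09 over the 240 tiles, of which 97 were above 0, and -0.03 over the multi-copy tiles. Over the 11 major satellite tiles it was 0.19, with 10 of them above 0. Over all 24017 tiles compared it was 0.04, with 55.6% of them above 0.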

How the results depend on the processing

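No paired analysis was possible because each group has 1 library, whose replicate number is only a name, and no replicate could be left out. Taking the first base of each interval in place of its midpoint moved none of the 22 results it was tried on. In the order HA-H3.3 at 3 and 6 h, anti-MacroH2A2 in ES cells and MEFs, HA-Macro ES without Dox and at 3, 6 and 12 h, and HA-Macro MEFs at 3, 6 and 12 h, the share of intervals in the chosen tiles became 1.81%, 2.05%, 1.77%, 1.22%, 2.18%, 2.50%, 2.41%, 2.36%, 1.97%, 1.96% and 1.77% with each distinct interval counted 1 time. It became 4.12%, 4.91%, 3.92%, 2.73%, 8.26%, 7.83%, 8.11%, 8.06%, 6.38%, 5.97% and 5.15% with the top 2% of tiles, which are 480, and 1.85%, 2.08%, 1.79%, 1.23%, 2.68%, 2.93%, 2.94%, 2.96%, 2.19%, 2.13% and 1.99% without the 2 fullest tiles, an alternative chosen after seeing the data. Choosing the tiles by distinct intervals kept 222 of the 240 and gave 2.14%, 2.33%, 2.02%, 1.37%, 6.95%, 5.89%, 6.28%, 6.24%, 4.90% and 4.51%, with no move beyond counting error in MEFs at 12 h. With the top 2% the repeated share was 6.90%, 4.14%, 4.56%, 5.00%, 60.2%, 45.7%, 50.5%, 51.8%, 47.8%, 44.5% and 39.1%. Of these 480 tiles, 297, 331, 266 and 75 were at least 2-fold over the median tile, against 6.2%, 19.7%, 4.12% and 1.62% of all tiles. In the induced HA-Macro libraries 378, 331, 310, 152, 139 and 141 were, against 9.52%, 4.23%, 4.31%, 5.08%, 4.26% and 5.05%. Of the counts of tiles 2-fold apart, distinct intervals gave 2 higher and 1 lower in ES cells from 3 to 12 h and 1 higher in MEFs than in ES cells at 6 h and at 12 h. Scaling to the median tile gave 4 lower in ES cells from 3 to 12 h, 2 higher in MEFs than in ES cells at 3 h, 16 lower in anti-MacroH2A2 from MEFs than from ES cells, and 7 higher and 0 lower in HA-H3.3 from 3 to 6 h. For counts of tiles 2-fold apart on these scales the share of all tiles is not given, so they have no background. The cause of the moves above was not tested beyond the construction of each alternative. Depth limits single tiles little with every row counted, since the median tile held 232 to 732 intervals. In the major satellite tiles distinct counts followed depth little, so their distinct shares depend on it. Library-to-library spread is left unmeasured by 1 library per condition.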
